A study of Rattus norvegicus with 6 samples.

Results

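The genes described here are 10 that carry water and ions across, or hold together, the epithelium of the choroid plexus: Aqp1, Kcnj13, Kcne2, Trpv4, Slc12a2, Slc4a5, Clic6, Cldn2, Krt8 and Krt18. They were found through the RefSeq accession of each non-control probe, matched to current rat gene symbols. All 10 were found among 15154 named genes, on 12 probes of 30367; Cldn2 and Slc12a2 have 2 probes each, and the brighter one stands for the gene. RNA was labelled as coming from the hippocampus of male Wistar rats that were operated on at 2 months of age, either by orchidectomy (removal of the testes) or by a sham procedure, and killed 2 weeks after it under ketamine and medetomidine anaesthesia. Each group held 3 biological replicates, and every RNA sample was labelled with Cy3 and read on its own 1-colour Agilent array. No genetic change, hormone replacement or further treatment is named in the labels, and both groups shared the housing and the anaesthesia. The design asks which hippocampal transcripts differ after removal of the testes.

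The choroid plexus is a fold of secretory epithelium in the brain ventricles that makes cerebrospinal fluid, and its lateral ventricle part lies against the hippocampus. Its cells move sodium, chloride, bicarbonate and potassium through channels and co-transporters, and water follows through a water channel of the apical membrane. Tight junctions with a leaky, pore-forming claudin join the cells, which contain the keratin filaments typical of simple epithelia.

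Values are log2 processed signals less the same array's 75th percentile, so 0 marks a probe as bright as that percentile. Of the 30367 probes, 23785 to 26173 passed the scanner's background test on a given array, and precision is limited by there being 6 arrays. The array labelled sham 2 stood apart from the other 5 before any comparison of the groups. Glutamatergic neuron genes, which define the labelled tissue, had a mean log2 value of -6.91 there and of -1.08 to -0.49 on the other 5 (9 genes). The defining markers Slc17a7 and Neurod6 had -9.32 (not well above background) and -6.81 on sham 2 against lowest values of -1.49 and 2.18 elsewhere. The markers of the labelled tissue are thus low or absent on sham 2, which may not hold hippocampal tissue; whether it does was not tested, and the sham mean over 3 arrays includes it. The comparison of the groups is therefore given with and without that array. In bulk tissue, fewer cells of a type and less RNA per cell cannot be told apart.

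All 10 genes were higher on the array labelled sham 2 than on any other array, by 3.44 to 11.64 log2 units when set against the median over the remaining 5 (median of the 10 genes 8.18). By comparison, 38.3% of the 27363 probes detected on any array were higher there than on all other 5, 19.4% lay over 1 log2 unit above that median and 23.8% over 1 unit below it, and the median difference of all of them was 0.0045. Of the 10 genes, 9 were among the 100 genes furthest above the other arrays, of 13778 detected genes. This array was singled out by its profile and has no replicate, and the genes were picked with that profile known, so no test was made and the values are a description. With normexp background correction the median over the 10 genes was 7.38, and dim genes moved more: Krt8 from 8.12 to 6.03 and Slc4a5 from 8.23 to 7.09. The folds below are thus smaller under that correction for the dimmest genes.

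For 7 of the 10 genes a promoter sequence was at hand (RefSeq, GRCr8 build), and the 250 bases before the start are printed for 4 of them. Kcnj13 and Aqp1 are shown because they had the largest differences on sham 2 among the 7, and Krt8 and Slc4a5 because they hold a match to a motif searched. Sequences run 5′ to 3′ on the gene's strand, and capitals mark the match.
Kcnj13 promoter, chr9:95518987-95519236, minus strand: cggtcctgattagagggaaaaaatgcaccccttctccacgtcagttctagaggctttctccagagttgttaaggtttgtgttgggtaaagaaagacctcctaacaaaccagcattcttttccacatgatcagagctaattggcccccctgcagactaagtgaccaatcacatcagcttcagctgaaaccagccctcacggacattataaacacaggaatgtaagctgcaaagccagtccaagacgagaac
Aqp1 promoter, chr4:85812534-85812783, plus strand: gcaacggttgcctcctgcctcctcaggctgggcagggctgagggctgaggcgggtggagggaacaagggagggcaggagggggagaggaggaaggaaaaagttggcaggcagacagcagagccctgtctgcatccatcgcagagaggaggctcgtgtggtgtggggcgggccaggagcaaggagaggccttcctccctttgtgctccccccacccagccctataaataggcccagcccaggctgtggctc
Krt8 promoter, chr7:135010340-135010589, minus strand: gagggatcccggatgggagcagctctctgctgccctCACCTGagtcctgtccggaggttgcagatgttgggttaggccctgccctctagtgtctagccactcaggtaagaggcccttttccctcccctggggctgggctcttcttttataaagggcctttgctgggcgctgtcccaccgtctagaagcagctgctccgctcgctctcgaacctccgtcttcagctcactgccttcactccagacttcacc
Slc4a5 promoter, chr4:117283044-117283293, plus strand: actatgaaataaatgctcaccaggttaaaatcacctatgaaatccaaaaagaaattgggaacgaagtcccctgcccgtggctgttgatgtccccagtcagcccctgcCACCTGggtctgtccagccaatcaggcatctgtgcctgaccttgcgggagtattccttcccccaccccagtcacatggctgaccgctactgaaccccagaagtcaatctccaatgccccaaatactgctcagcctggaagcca
The motifs searched on both strands were TAATCC (core of OTX-type homeodomain factors), TGTTTAC (forkhead core) and CAGGTG (an E-box), and none of these overlaps another. The first and second had 0 matches in the 7 windows, while 6.34% and 3.21% of 33469 rat promoter windows of the same length hold one. CAGGTG was found, as its reverse complement, in 2 of the 7, starting 214 bases before the start of Krt8 and 143 before that of Slc4a5, against 15.9% of all windows. A match is a run of letters and was not tested for binding. The windows differed in base composition, from 46.8% G and C in Kcnj13 to 83.2% in Slc12a2, where the median of all windows was 51.2%.

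Aqp1 encodes the water channel of the apical membrane of the choroid plexus. Its log2 values were -4.08, -4.20 and -4.63 on orchidectomized 1 to 3, -4.08 and -4.91 on sham 1 and 3, and 4.83 on sham 2. The single high array was 593-fold above the mean of the other 5, whose whole range was 0.83. In processed signal this is 52780 on sham 2 against 45.4 to 116.76 elsewhere. The probe is spotted 10 times on each array, and the SD of its spots within an array was 0.04 to 0.12 log2 units. That spread is technical. The other 5 arrays also differed from one another by more than it, from -4.91 on sham 3 to -4.08, although orchidectomized 1 and sham 1 had the same value to 2 decimals.

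Among the potassium channel genes, Kcnj13, an inward rectifier of the apical membrane, had log2 values of -3.47, -3.92 and -5.07 on orchidectomized 1 to 3, -4.95 and -5.39 on sham 1 and 3, and 5.14 on sham 2. Its spot was saturated on sham 2, so that value is a lower bound and the difference from the mean of the other 5 is at least 830-fold in these values. Kcne2, an accessory subunit that assembles with pore-forming potassium channel proteins, had -2.08, -1.76 and -1.52 on orchidectomized 1 to 3, -2.02 and -1.98 on sham 1 and 3, and 5.33 on sham 2. It was saturated there too, at least 147-fold above the mean of the other 5. Across all detected probes 1.74% were saturated on sham 2, and 3 of the 10 genes were. Trpv4, a cation channel that responds to cell swelling and warmth, had -3.54, -3.72 and -3.64 on orchidectomized 1 to 3, -3.93 and -3.87 on sham 1 and 3, and 4.24 on sham 2. Its 5 lower values lay within 0.39 log2 units, the narrowest spread of the 10 genes, and sham 2 was 251-fold above their mean.

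Slc12a2, the sodium, potassium and chloride co-transporter that is also expressed outside the choroid plexus, differed least. Its log2 values were 0.39, 0.52 and 0.04 on orchidectomized 1 to 3, 0.70 and 0.53 on sham 1 and 3, and 3.95 on sham 2. That is 11.5-fold above the mean of the other 5, and the second probe of the gene gave 14.9-fold. It is the 1 gene of the 10 outside those 100, at rank 534. Slc4a5, which carries sodium together with bicarbonate, had -5.35, -5.44 and -5.19 on orchidectomized 1 to 3, -5.28 and -5.97 on sham 1 and 3, and 2.89 on sham 2, a 323-fold difference. Clic6, a member of the chloride intracellular channel family, had -5.27, -5.75 and -6.31 on orchidectomized 1 to 3, -5.44 and -7.37 on sham 1 and 3, and 3.98 on sham 2, or 1033-fold. Its low values spread over 2.10 log2 units, with sham 3 lowest.

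The largest difference of the 10 was that of Cldn2, the pore-forming claudin of leaky epithelia. Its brighter probe had log2 values of -5.52, -6.67 and -6.86 on orchidectomized 1 to 3, -7.27 and -7.73 on sham 1 and 3, and 4.77 on sham 2. The last value was 3071-fold above the mean of the other 5, and it held rank 3 among all detected genes. With normexp the log2 difference of Cldn2 was 9.55 in place of 11.64. Orchidectomized 1 was the highest of the 5 low arrays and sham 3 the lowest. A second Cldn2 probe was well above background on sham 2 alone, at 1.22, and was at least 522-fold brighter there; on the other 5 arrays it lay between -10.41 and -9.64, and it was not tested between the groups.

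Krt8 and Krt18 encode the pair of keratins that assemble into the filaments of simple epithelia, and in the rat annotation 0 protein-coding genes lie between them. Krt8 had log2 values of -5.15, -6.02 and -6.05 on orchidectomized 1 to 3, -5.03 and -6.18 on sham 1 and 3, and 2.10 on sham 2, 221-fold above the mean of the other 5. Krt18 had -2.14, -2.63 and -2.46 on orchidectomized 1 to 3, -2.21 and -3.23 on sham 1 and 3, and 5.16 on sham 2, where it was saturated and at least 207-fold higher. In both genes orchidectomized 1 and sham 1 were the 2 highest of the low arrays, and sham 3 was the lowest.

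**Figure D1:**
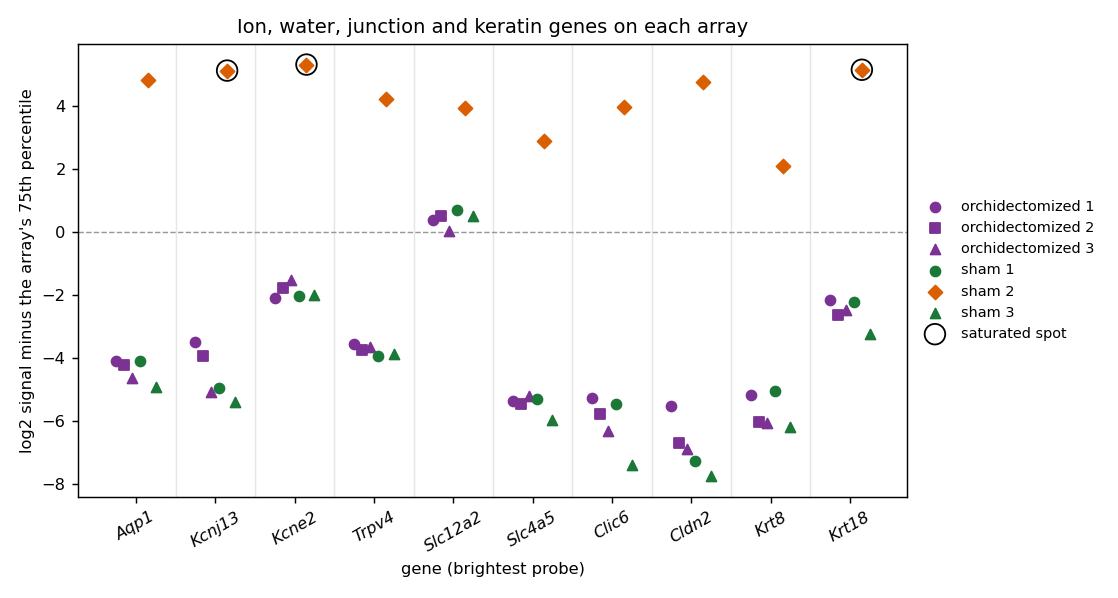
Log2 signal less the array's 75th percentile (vertical axis) for the 10 genes, 1 point per array, with orchidectomized arrays in purple, sham 1 and 3 in green and sham 2 in orange. Sham 2 is the highest point of every gene, and the rings mark Kcnj13, Kcne2 and Krt18, whose spots were saturated there.

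Position in the genome was set beside the values for the other pair of neighbours. Kcne2 and Clic6 have 5 protein-coding genes between them in the annotation, and 4 of these have a probe. Rcan1, a calcineurin regulator, had 1.83 on sham 2 and 1.67 to 2.12 on the other 5, so sham 2 lay inside their range. Kcne1, another accessory potassium channel subunit, had -6.78 against -7.87 to -6.54, and Smim11, which encodes a small membrane protein, had 1.41 against -0.42 to -0.09. The fourth, C11h21orf140, was well above background on 0 of the 6 arrays. These neighbours differed by -0.24, 0.57 and 1.68 log2 units, where Kcne2 and Clic6 differed by 7.31 and 9.73. They were looked up after the values of the 10 genes were seen.

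Genes that work with the 10 in ion transport were also mostly higher on sham 2. Of 21 listed partners, 13 were over 1 log2 unit above the median of the other 5, 3 were over 1 unit below and 5 lay within 1 unit (median 2.34). Kcnq1, the pore-forming potassium channel with which Kcne2 assembles, had 2.84 on sham 2 against -3.94 to -3.54, a 94.1-fold difference. The potassium and chloride co-transporter genes Slc12a4 and Slc12a7 had 4.70 and 1.91 there, against highest values elsewhere of -0.35 and -2.55.

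Relatives of the 10 genes in the same families were higher in some cases and lower in others. The neuronal potassium and chloride co-transporter gene Slc12a5 had -2.15 on sham 2 against 4.71 to 4.94, and Kcnj16, an inward rectifier related to Kcnj13, was not well above background on sham 2 and at least 17.4-fold brighter on the other 5. Clic3 was the exception among the 3 relatives named, at -1.25 against -6.53 to -5.42. Over the 17 detected relatives the median was -1.15, with 5 over 1 unit higher and 9 over 1 unit lower. Of 9 detected aquaporins other than Aqp1, 0 were over 1 unit higher and 5 were lower by that much, among them Aqp4, the water channel of astrocyte endfeet, at 0.62 against 4.39 to 5.13. Aqp9 had -5.29 against 0.48 to 0.78, and Aqp11 had -3.11 against -0.84 to -0.48. With normexp correction the medians of the relatives and of the other aquaporins were -0.27 and -0.28, where they were -1.15 and -1.44.

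Other junction genes were also higher in some cases and lower in others. Of 18 other junction genes 8 were over 1 unit higher and 5 lower on sham 2. The claudin genes Cldn3 and Cldn1 had 1.75 and 1.32 there, against highest values elsewhere of -2.53 and -4.44, whereas Cldn10 had -5.72 against -0.57 to -0.10. Cldn5, the claudin of brain endothelium, had -1.51 against 0.87 to 1.22. Epcam, an epithelial adhesion molecule, had -0.47 against -5.92 to -4.51. The keratin genes Krt19 and Krt20 had -6.22 and -6.43 on sham 2, against highest values of -6.98 and -6.16 elsewhere. Of the 8 detected keratin and epithelial genes beside Krt8 and Krt18, 2 were over 1 unit higher, 0 were lower by that much and the median was 0.44, or 0.09 with normexp and 0.96 with quantile normalization. Krt19, 1 of the 2 higher genes, was not well above background on 4 of the other 5 arrays.

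Markers of the cell types that hippocampal tissue or its surroundings could hold also differed on sham 2, some lists higher and some lower. Their part in the result was not tested. Of 17 other choroid plexus genes 16 were over 1 unit higher on sham 2 (median 7.70), with Kl, Prlr and Col8a1 at 3.72, 2.19 and 4.07 against highest values of -5.65, -7.15 and -5.07. The mean log2 value of these 17 genes was 4.43 on sham 2, -3.06 to -2.25 on the orchidectomized arrays and -2.54 and -3.28 on sham 1 and 3. The ependymal genes Foxj1, Dynlrb2 and Rsph1 had 3.79, 3.90 and 3.75 against highest values of -1.54, -0.82 and -0.92, and they are the 3 of 6 detected ependymal genes that were over 1 unit higher. The other 3, Tmem212, Mia and Rarres2, were slightly lower, by -0.57, -0.61 and -0.04, and the median of the 6 was 2.51. Of 8 meningeal and fibroblast genes 4 were over 1 unit higher and 2 lower, with Col1a2 and Col3a1 3.16 and 2.69 higher and Vtn 3.41 lower. Endothelial genes had a median of 0.13, with Cldn5 2.63 lower, Slco1c1 2.07 higher and Esam 0.75 lower. All 9 glutamatergic neuron genes were over 1 unit lower (median -7.40, or -3.62 with normexp), as were 6 of 7 astrocyte genes (median -4.60) and 7 of 7 oligodendrocyte genes (median -4.49).

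**Figure D2:**
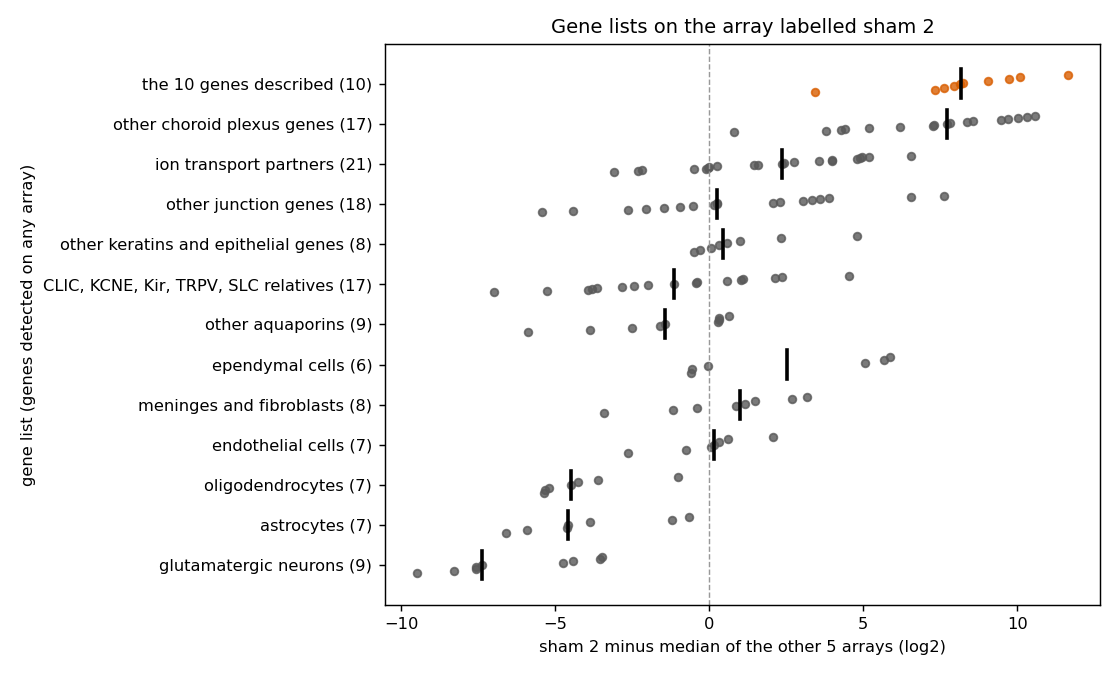
Sham 2 minus the median over the remaining 5 arrays, in log2 (horizontal axis), 1 point per detected gene in each list, with the number of genes in brackets and the list's median as a black bar. The 10 genes described (orange) lie between 3.44 and 11.64, and the other choroid plexus genes have a median of 7.70 and glutamatergic neuron genes one of -7.40.

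The genes whose profile over the 6 arrays lay nearest to the median profile of the 10 were Slco1a5, C8h11orf97, Thbs2, Klhl31 and Abca4. Their root mean square distance from it was 0.24 to 0.35 log2 units, and that of the 10 genes ran from 0.21 for Slc4a5 to 1.77 for Slc12a2. Klhl31 lay below the lowest value well above background on each of the other 5 arrays (-9.23 to -8.25), so its likeness there is one of background signal. Slco1a5, an organic anion transporter, had 3.33 on sham 2 and -5.23 to -4.81 on the other 5. Thbs2, which encodes a thrombospondin, had 2.60 against -5.53 to -4.66. With 6 arrays this likeness rests mainly on the step between sham 2 and the rest.

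The 5 remaining arrays also differed from one another in these genes, by a range of 0.39 log2 units for Trpv4 to 2.21 for Cldn2. Orchidectomized 1 had the highest value of the 5 for 6 of the 10 genes, and sham 3 had the lowest for 7. Taken over the 10 genes, sham 3 had a median of -0.53 from each gene's own median, orchidectomized 1 had 0.25, and orchidectomized 2 and 3 and sham 1 had 0.00, -0.01 and 0.10. The mean over the 17 other choroid plexus genes was lowest on sham 3 and highest on orchidectomized 1 as well, at -3.28 and -2.25. All 5 low arrays were nevertheless well above background for the brighter probe of each of the 10 genes.

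**Figure D3:**
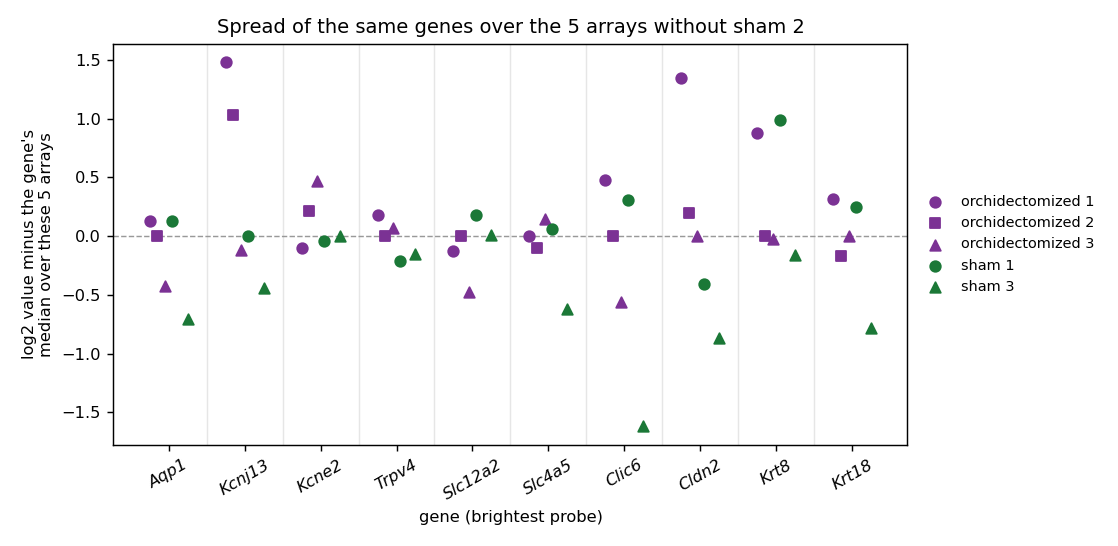
Log2 value of each of the 10 genes minus its own median over the 5 arrays without sham 2 (vertical axis), 1 point per array. Sham 3 (green triangles) lies lowest for 7 genes and orchidectomized 1 (purple circles) highest for 6, with the widest spread in Cldn2.

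With all 6 arrays, none of the 10 genes passed the threshold between orchidectomized and sham rats in limma (0 of 10 at an adjusted p under 0.05, also 0 at an unadjusted p under 0.05). The background was 0% of 24630 tested probes called, and 180 had an unadjusted p under 0.05. The mean was lower in the orchidectomized group for all 10, where it was higher for 48.4% of tested probes, by a median of -2.49 log2 units against -0.02 over all tested probes. The sham group here holds sham 2, where all 10 genes were highest and whose profile was known when they were picked. That direction was thus close to set in advance and cannot be read as an effect of orchidectomy. Cldn2 differed by -2.94 with a standard error of 3.48 and Aqp1 by -2.92 with 2.64 (limma adjusted p 0.775 for both). For Aqp1 the orchidectomized mean was -4.30 ± 0.29 (SD, n = 3) and the sham mean was -1.38 ± 5.40 (SD, n = 3), a spread that comes from sham 2 at 4.83 against -4.08 and -4.91. The groups did not overlap for 1 gene, Slc12a2, which was lower after orchidectomy; among tested probes 8% did not overlap, 4.74% with lower and 3.26% with higher orchidectomized values. Its means were 0.32 ± 0.25 (SD, n = 3) after orchidectomy and 1.73 ± 1.93 (SD, n = 3) after sham operation.

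Without sham 2, again 0 of 10 genes passed the threshold in limma, against 0% of 25208 tested probes called. Of these 10 genes 1, Cldn2, had an unadjusted p under 0.05, as did 682 tested probes, or 2.71%. In the orchidectomized arrays 8 of the 10 means were higher and 2 lower, with a median difference of 0.28 log2 units, where 44.9% of tested probes were higher and their median was -0.02. All 10 adjusted p were 0.988. The groups did not overlap for 3 of the genes, Cldn2, Trpv4 and Slc12a2, and for 16.3% of tested probes. Cldn2 and Trpv4 were higher and Slc12a2 lower after orchidectomy, where 6.24% of tested probes were higher and 10% lower without overlap.

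For Cldn2 the orchidectomized mean was -6.35 ± 0.73 (SD, n = 3) and that of sham 1 and 3 was -7.50 ± 0.33 (SD, n = 2), which differ by 1.15 (standard error 0.43) with a 95% interval of 0.09 to 2.21 and a limma adjusted p of 0.988. The 2 groups were set apart by the step from -7.27 on sham 1 to -6.86 on orchidectomized 3, and without orchidectomized 1 the difference was 0.73. It was 0.59 with normexp, 1.64 with quantile normalization and 0.40 (standard error 0.66) with the slide block. Its second probe was not above background on any of these 5 arrays and gives no second reading. Kcnj13 averaged -4.15 ± 0.83 (SD, n = 3) against -5.17 ± 0.31 (SD, n = 2), or 1.02 higher (standard error 0.48). Orchidectomized 1 and 2 lay above both sham arrays there, and orchidectomized 3 lay between them. Trpv4 averaged -3.63 ± 0.09 (SD, n = 3) against -3.90 ± 0.04 (SD, n = 2), or 0.26 higher (standard error 0.13) without overlap.

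Clic6 differed by 0.63 with a standard error of 0.60, the widest error of the 10, and sham 1 and sham 3 lay 1.93 log2 units apart. Krt18, Slc4a5, Kcne2 and Aqp1 differed by 0.31, 0.30, 0.22 and 0.19, each with overlapping groups. Krt8 differed by -0.13 with a standard error of 0.43, opposite in sign to its partner Krt18, and by 0.20 with normexp background correction. Slc12a2 averaged 0.32 ± 0.25 (SD, n = 3) after orchidectomy against 0.61 ± 0.12 (SD, n = 2), which is -0.30 (standard error 0.18), and its second probe differed by -0.11 with overlapping groups.

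The direction depended on which sham array the orchidectomized ones were set against. Against sham 3 alone 9 of the 10 genes were higher in the orchidectomized mean, with a median of 0.62. Against sham 1, the other array of the first scan day, 4 were higher and 6 lower, with a median of -0.12, and on the slide that orchidectomized 3 shares with sham 1 the median was -0.18, with 4 higher and 6 lower. Kcne2, Trpv4 and Cldn2 were higher in all 3 of these settings, and Slc12a2 was lower in all 3. The scan day of sham 3 held no orchidectomized array, so for that array group and day cannot be told apart.

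**Figure D4:**
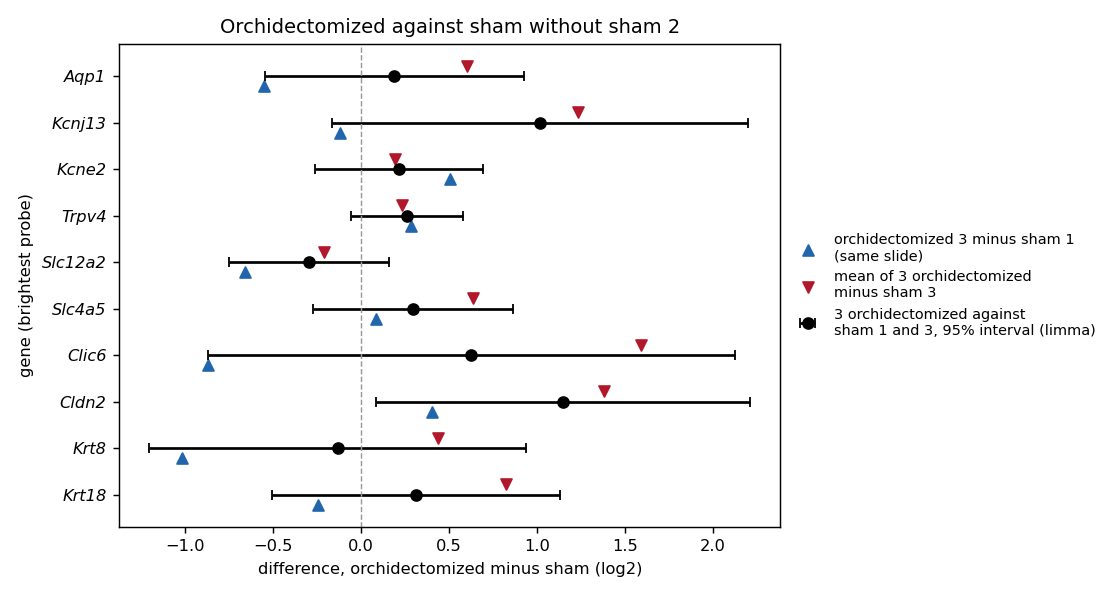
Orchidectomized minus sham in log2 units (horizontal axis) for each of the 10 genes without sham 2. Black points with bars are the limma difference and its 95% interval (n = 3 and 2), blue triangles are orchidectomized 3 minus sham 1 on 1 slide, and red triangles are the orchidectomized mean minus sham 3; for Cldn2 alone the interval lies above 0, from 0.09 to 2.21.

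Lists of related genes gave 0 calls in this comparison as well (limma, adjusted over all tested probes). Of 21 ion transport partners 7 were higher and 14 lower (median -0.06), and of 18 other junction genes 8 were higher and 10 lower (median -0.05). Kcnq1 differed by 0.04 with a standard error of 0.16 where Kcne2 differed by 0.22. Of the 16 tested other choroid plexus genes 11 were higher and 5 lower (median 0.19), and Kl differed by 0.92 with a standard error of 0.57. That median was -0.46 with the slide block, -0.20 with the scan day block, -0.21 without sham 3 and 0.53 without sham 1. The largest differences of the list, picked out after their values were seen, were those of Ttr and Sostdc1. Ttr encodes transthyretin, a carrier of thyroid hormone, and had 5.203, 4.87 and 4.36 on orchidectomized 1 to 3 against 3.47 and 2.99 on sham 1 and 3. The groups did not overlap, and the difference was 1.58 (standard error 0.29), at an adjusted p of 0.988 in limma. Ttr was saturated on sham 2, at 5.16, and on 1 of the other 5 arrays. Its difference of 0.80 on sham 2 and the 1.58 thus each hold a value cut off by saturation. It is the 1 gene of the 17 not measured as over 1 unit higher on sham 2, and how much higher it was cannot be read from a saturated spot. Sostdc1, a secreted BMP antagonist, differed by 1.34 with a standard error of 0.48.

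Markers of other cell types also differed in this comparison, with 0 calls, and their part in the values of the 10 genes was not tested. All 9 glutamatergic neuron genes were lower, by a median of -0.16 (-0.46 to -0.0042 over the alternatives), where 44.9% of tested probes were higher. Of 7 oligodendrocyte genes 6 were lower, by a median of -0.27 (-0.54 to -0.14 over the alternatives). Of 7 astrocyte genes 5 were higher, with a median of 0.16 (0.03 to 0.28 over the alternatives). Of 6 ependymal genes 4 were lower, with a median of -0.27 that ran from -0.93 with the slide block to 0.25 without sham 1.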

How the data were processed

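The titles gave each sample's group and replicate number. Per the file headers, the authors' arrays were read in 1 channel with Agilent Feature Extraction 10.5.1.1, whose deposited processed signal is a background-subtracted, detrended intensity. The table of values deposited by the authors is on a log2 scale: each column is log2 processed signal plus 1 constant (-0.32 to 0.72). Its column medians were 8.02, 7.94 and 7.91 in the orchidectomized group and 7.77, 7.62 and 8.05 in the sham group, in replicate order. The origin of the constants, and so the centring, stays unknown, and 1-colour values have no direction.

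Control and outlier spots were left out, spots of a probe were averaged as log2, and each array's 75th percentile was subtracted. A probe flag needed 50% of its spots. RefSeq accessions, without versions, named 18004 of 30367 probes (GRCr8); the array design uses another build, so no array coordinates are given. A gene name column was not used here. Probes well above background on every array of at least 1 group were tested two-sided with limma 3.58.1 (R 4.3.3), and p-values were adjusted over all tested probes by the Benjamini-Hochberg method. "At least" folds take a saturated value as measured, or set a dim probe at the higher of its value and the lowest value well above background on each array.

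The genes and lists were chosen with earlier results of these data known. All 10 genes are named, with up to 3 genes per list by size of the difference on sham 2 and the 5 nearest profiles. Orchidectomized 1 and 2 shared a slide, as did orchidectomized 3 and sham 1; sham 2 and sham 3 were each on their own. Sham 2 and sham 3 were scanned on a later day than the remaining 4 arrays. In tests on simulated data, limma without sham 2 (24162 probes) called 53 of 100 probes changed by 1 log2 unit, 100 of 100 changed by 2, and 8 unchanged probes. With all 6 arrays (22703 probes) it called 0 of 100 at either size. The simulated noise of a probe had the same spread on every array, with no slide or scan day differences. In the data sham 2 lies far from the rest, so these counts are not detection rates for the data.

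Alternatives were normexp (offset 50), quantile and median scaling, the deposited values, other brightness filters, the mean of a gene's probes, array weights, a block (replicate number, slide or scan day), and each array left out. The 3 promoters not matched, and protein sequences, were not used here.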

Additional observations from a re-analysis of the deposited data

How the results depend on the processing

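None of the 10 genes passed the threshold in any alternative of either comparison (limma, 0 of 10 each), including the replicate block. Over all probes the count of 0 became 1 with quantile normalization and 13 with array weights (6 arrays). Without sham 2 it became 2 with quantile normalization, 1 with median scaling, 18 with the deposited values, 10 with the scan day block, 22 without sham 1 and 251 without sham 3, where a lone sham array is assumed to vary like the others. Median scaling moved the median of all probes to -0.10 over 6 arrays.

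The median of the 10 genes on sham 2 was 7.38 with normexp and 8.06 to 8.21 when another array was left out. The median difference without sham 2, 0.28, became -0.18 with the slide block, -0.12 with the scan day block and 0.33 with the replicate block, and ran from -0.12 (without sham 3) to 0.62 (without sham 1). The causes were not tested. Deviations of same-numbered arrays from their group means had correlations of 0.05, -0.03 and -0.03. The sham means include sham 2, which lies far from the rest, so these values cannot show whether the numbers pair animals. The replicate block gave no member call.

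Several signs turned. With 6 arrays, Kcne2, Trpv4, Slc4a5 and Cldn2 turned to 0.51, 0.28, 0.087 and 0.40 with the slide block. Kcnj13, Kcne2, Trpv4 and Cldn2 turned to 0.80, 0.24, 0.29 and 0.92 with the scan day block. Kcnj13, Kcne2, Trpv4, Clic6 and Cldn2 turned to 1.21, 0.074, 0.26, 0.12 and 1.19 with array weights. Leaving out 1 array gave -4.68 to 0.19 for Aqp1, -4.25 to 1.02 for Kcnj13, -3.46 to 0.22 for Kcne2, -3.82 to 0.26 for Trpv4, -4.13 to 0.30 for Slc4a5, -5.05 to 0.63 for Clic6, -5.10 to 1.15 for Cldn2 and -3.88 to 0.31 for Krt18, each turning without sham 2 alone. Without sham 2, Aqp1, Kcnj13, Clic6 and Krt18 turned to -0.55, -0.12, -0.87 and -0.25 with the slide block. Aqp1, Slc4a5, Clic6 and Krt18 turned to -0.23, -0.046, -0.34 and -0.20 with the scan day block. Krt8 turned to 0.20 with normexp and 0.0082 with the replicate block. Leaving out 1 further array gave -0.23 to 0.61 for Aqp1, -0.046 to 0.64 for Slc4a5, -0.34 to 1.59 for Clic6, -0.71 to 0.44 for Krt8 and -0.20 to 0.83 for Krt18. Kcne2, Trpv4, Cldn2 and Slc12a2 kept their sign in all 15 alternatives without sham 2. These are not 15 separate checks, as the blocks repeat other comparisons of the same arrays.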
